A study of Mus musculus with 16 samples.

Results

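The cyclic nucleotide phosphodiesterases examined here are 10 genes that encode enzymes breaking down cyclic AMP, some of them cyclic GMP as well: *Pde1a*, *Pde1c*, *Pde3a*, *Pde3b*, *Pde4a*, *Pde4b*, *Pde4d*, *Pde7a*, *Pde8a* and *Pde10a*. They were taken by gene symbol from the table of TPM, a measure of transcript abundance corrected for transcript length, and by the same Ensembl identifier from the count table, and all 10 were found among the 54393 genes of the latter. The measurements come from mIMCD3, an SV40-transformed cell line from the mouse inner medullary collecting duct, labelled wild type and kept 10 days on permeable filters. Afterwards the cells received 2 µg/mL doxycycline (DOX), a tetracycline antibiotic, or its vehicle DMSO, for 3 or 6 days with fresh medium every day. Each of the 4 groups (DMSO 3 days, DOX 3 days, DMSO 6 days and DOX 6 days) holds 4 replicate libraries of poly(A) RNA. All of them are this cell line, so the values say nothing of other lines or of the kidney itself.

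Cyclic AMP is made by adenylyl cyclases and broken down by phosphodiesterases, which help to set how long and how far the signal travels in a cell. In the collecting duct vasopressin raises cyclic AMP, and the messenger acts through protein kinase A to bring water channels to the apical membrane. The PDE4 enzymes act on cyclic AMP alone and are blocked by rolipram. The PDE7 and PDE8 enzymes are also specific for cyclic AMP and resist rolipram. The PDE3 enzymes hydrolyse cyclic AMP and are slowed by cyclic GMP, the PDE1 enzymes need calcium and calmodulin, and PDE10A accepts both nucleotides.

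Total estimated counts ran from 16933343 to 23960860 per library. The correlation of log2 CPM (counts scaled to a common library total by the TMM method) between replicates of a group was 0.981 to 0.992. In edgeR's glmTreat, which asks for a change beyond 1.2-fold, 1658 of 13234 tested genes were called at 3 days (12.5%, with 702 higher in DOX and 956 lower) and 2856 at 6 days (21.6%, with 1326 higher and 1530 lower). On log2(TPM + 1) limma's treat gave 85 higher and 616 lower at 3 days, and 376 higher and 931 lower at 6 days, with the median of all genes moved by -0.149 at 3 days. Summed TPM of 6 epithelial markers was 2125 to 2586 in DMSO libraries and 1570 to 1820 in DOX libraries. Of 8 collecting duct markers 3 reached the test. The sum of all 8 was 6.89 to 10.1 TPM in DMSO and 3.08 to 4.99 TPM in DOX. The water channel gene *Aqp2* stayed at or under 0.391 TPM in every library, so this defining marker was nearly absent. Of 6 stromal markers 4 averaged under 0.1 TPM, and the stromal sum was 0.967 to 3.23 TPM. The endothelial sum was 0.498 to 1.42 TPM, with *Cdh5* and *Emcn* under 0.1 TPM. Of 3 leucocyte markers *Cd3e* averaged under 0.1 TPM and *Ptprc* stayed at or under 0.381 TPM, whereas *Cd68* stood at 17.01 to 24.4 TPM in DMSO and 7.76 to 12.5 TPM in DOX. The leucocyte sum was 17.3 to 24.6 TPM in DMSO and 7.81 to 12.7 TPM in DOX, so *Cd68* and the epithelial and collecting duct sums were lower in every DOX library, and their part in the results below was not tested.

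Levels between the phosphodiesterase genes were compared per length, as TPM in the 8 DMSO libraries. *Pde7a* was the highest of the 10, at 50.8 ± 5.87 TPM (mean ± SD, n = 8). *Pde8a* followed at 5.93 ± 1.09 TPM. The PDE4 genes were at 1.71 ± 0.307 TPM for *Pde4d*, 1.497 ± 0.279 TPM for *Pde4b* and 1.35 ± 0.236 TPM for *Pde4a* (n = 8). *Pde7a* exceeded *Pde8a*, and *Pde8a* exceeded *Pde4d*, in 8 of 8 DMSO libraries. The PDE4 neighbours did not separate, with *Pde4d* above *Pde4b* in 4 of 8 libraries and *Pde4b* above *Pde4a* in 5 of 8.

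The other 5 genes were close to the limit of detection. *Pde10a* averaged 0.196 ± 0.0740 TPM (n = 8), *Pde1a* 0.106 TPM, *Pde1c* 0.0899 TPM, *Pde3b* 0.0743 TPM and *Pde3a* 0.0106 TPM. Among *Pde1a*, *Pde1c* and *Pde3b* the order changed from library to library, with *Pde1a* above *Pde1c* in 4 of 8 and *Pde1c* above *Pde3b* in 5 of 8. All 5 fell below the minimum of 1 CPM in at least 4 libraries and had no value in the test over all genes, which 5 of the 10 genes entered.

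**Figure D1:**
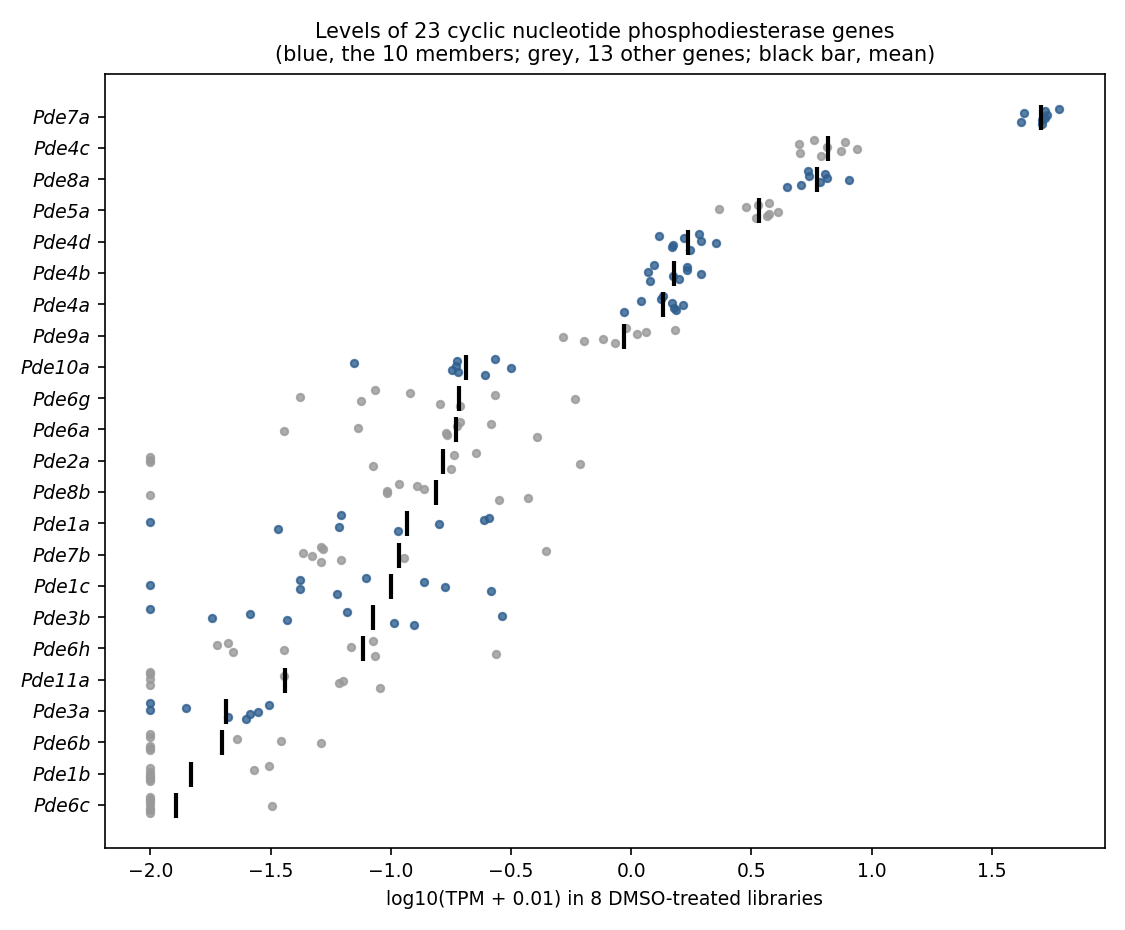
The plot of levels shows TPM on a log10 axis (0.01 added before the logarithm) of 23 phosphodiesterase genes, 1 point per DMSO library (8 in all) and a black bar at the mean. Blue genes are the 10 described here and grey genes the 13 others, and *Pde7a* stands alone at the right at 50.8 TPM.

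*Pde7a* supplied most of the summed TPM of the 10 genes, between 77.7% and 85.4% in every library. The sum was 60.2 ± 6.15 TPM in DMSO and 47.4 ± 12.8 TPM in DOX at 3 days, and 63.2 ± 7.14 and 55.2 ± 3.98 TPM at 6 days (n = 4 each). In sum the ranges overlapped at both times. *Pde4d* made up 2.86% of the sum in DMSO and 1.91% in DOX at 3 days, and 2.70% and 1.63% at 6 days. Of the 13 other listed phosphodiesterase genes only *Pde4c*, *Pde5a* and *Pde9a* passed the filter. *Pde4c*, the remaining PDE4 gene, made up 59.2% of the summed TPM of the 4 PDE4 genes in DMSO at 3 days and 59.1% in DOX, so it exceeded the PDE4 genes described here.

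DOX lowered the cyclic AMP-specific gene *Pde4d* at both times and *Pde4b* at 3 days. None of the 5 tested genes was called higher in DOX at either time, beside 5.30% of all tested genes at 3 days and 10.0% at 6 days. The 2 of 5 called lower at 3 days stand beside 7.22% of all tested genes, and the 1 of 5 called lower at 6 days beside 11.6%. Genes called lower at both times were 5.36% of those tested. The median log2 fold change of the 5 was -0.30 at 3 days and -0.09 at 6 days, beside 0.0031 and -0.00064 over all tested genes.

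*Pde4d* encodes a phosphodiesterase whose many isoforms are held near β-adrenergic receptors and protein kinase A by scaffold proteins. In GRCm38 it spans chr13:108449948-109953461 on the plus strand with 20 annotated transcripts. At 3 days its CPM was 4.04, 3.55, 3.49 and 4.91 in DMSO and 2.00, 1.94, 2.39 and 2.51 in DOX. The DOX libraries lay below every DMSO library, as 19.8% of tested genes did in that direction. The log2 fold change was -0.86 (SE 0.184), so that the level fell by 44.8%, with an adjusted p of 0.00728 in edgeR's glmTreat.

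At 6 days *Pde4d* was at 4.42, 4.23, 2.71 and 4.50 CPM in DMSO and at 2.46, 1.77, 1.60 and 1.77 CPM in DOX. Again no DOX library reached the lowest DMSO library, although the third DMSO replicate lay far below the other three and near the highest DOX value. At this time 20.9% of tested genes were lower without overlap. The log2 fold change was -1.07 (SE 0.185), so that the level fell by 52.2%, with an adjusted p of 0.000521 in glmTreat. The DOX effects of the 2 times differed by -0.21 on the log2 scale (adjusted p = 0.628, glmQLFTest), beside 17.0% of tested genes whose effects did differ. Without DOX *Pde4d* averaged 4.00 ± 0.655 CPM at 3 days and 3.97 ± 0.847 CPM at 6 days.

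On the length-corrected scale *Pde4d* moved the same way, from 1.73 ± 0.359 to 0.856 ± 0.0845 TPM at 3 days and from 1.70 ± 0.300 to 0.899 ± 0.0828 TPM at 6 days, again without overlap. Its difference of log2(TPM + 1) was -0.55 at 3 days, or -0.40 relative to the median of all genes, and -0.50 at 6 days. The pseudocount of 1 is as large as these levels and shrinks the difference. On this scale limma's treat did not call *Pde4d* (adjusted p = 0.0858 and 0.124), and the part of the pseudocount in this was not tested. DESeq2 missed the threshold at 3 days (adjusted p = 0.0510). Leaving out any of the 16 libraries kept the edgeR call at both times, with adjusted p up to 0.0363 at 3 days and 0.00301 at 6 days.

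Because *Pde4d* and *Pde4b* were both lower at 3 days, windows from 250 bases before to 50 bases after their annotated starts were read for the cyclic AMP response element (CRE), the site CREB factors bind. RefSeq promoter windows on GRCm38.p6 were found for 7 of the 10 genes, 18 in all, and none was at hand for *Pde3a*, *Pde3b* and *Pde7a*. The palindrome TGACGTCA was in 0 of the 18 on either strand and in 1.79% of 32851 promoter windows. Its core TGACG, which is contained in the palindrome, was in 4 of 18 and in 20.8% of all windows. The GC box GGGCGG was in 5 of 18 and in 35.7%. The windows of *Pde4d*, of the *Pde4b* start that holds the core, and of *Pde8a*, which was not called, follow 5′ to 3′ on the gene's strand, with the core or its reverse complement in capitals.
Pde4d, chr13:108653927-108654226, plus strand: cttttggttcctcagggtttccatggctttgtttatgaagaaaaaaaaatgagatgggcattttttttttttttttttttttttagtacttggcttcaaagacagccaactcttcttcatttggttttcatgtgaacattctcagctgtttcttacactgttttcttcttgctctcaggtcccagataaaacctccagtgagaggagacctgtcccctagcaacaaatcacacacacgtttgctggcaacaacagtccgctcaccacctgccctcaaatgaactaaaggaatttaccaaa
Pde4b, chr4:102421305-102421604, plus strand: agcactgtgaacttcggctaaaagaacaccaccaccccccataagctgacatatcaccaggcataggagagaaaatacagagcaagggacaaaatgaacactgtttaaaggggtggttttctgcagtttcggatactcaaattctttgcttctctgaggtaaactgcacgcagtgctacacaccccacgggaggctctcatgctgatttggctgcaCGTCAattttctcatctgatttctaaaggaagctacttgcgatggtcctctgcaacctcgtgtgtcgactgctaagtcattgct
Pde8a, chr7:81213015-81213314, plus strand: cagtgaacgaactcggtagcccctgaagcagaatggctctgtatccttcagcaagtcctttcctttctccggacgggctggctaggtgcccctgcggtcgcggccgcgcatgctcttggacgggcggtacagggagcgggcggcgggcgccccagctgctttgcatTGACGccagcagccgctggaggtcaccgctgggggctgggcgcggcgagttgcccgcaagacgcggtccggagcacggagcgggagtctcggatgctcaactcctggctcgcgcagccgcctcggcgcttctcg
The core begins at position -34 from the start in the *Pde4b* window and at position -84 in the *Pde8a* window. These letters are not in the *Pde4d* window. That window, the only one at hand for *Pde4d*, begins at 108653927 in a gene that begins at 108449948, so starts elsewhere in *Pde4d* were not read. The printed *Pde4b* window, the first at hand for that gene, begins at 102421305 in a gene that begins at 102087543. Earlier *Pde4b* starts were likewise not read. The *Pde8a* window ends at 81213314, before the annotated span of *Pde8a* begins at 81213596. The core was also in a window of *Pde4a* (position -50), which was not called, and of *Pde1a* (position -166). The other *Pde4b* windows do not hold it. The GC content was 39.7% for the *Pde4d* window, 47% for *Pde4b* and 68.7% for *Pde8a*.

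*Pde4b* encodes a cyclic AMP-specific enzyme known for its role in inflammatory signalling. It spans chr4:102087543-102607259 on the plus strand with 13 transcripts and no overlapping gene. Its CPM at 3 days was 4.29, 5.01, 4.41 and 5.60 in DMSO and 4.06, 2.94, 2.01 and 2.84 in DOX. The highest DOX library lay just under the lowest DMSO library, so the groups did not overlap. The log2 fold change was -0.71 (SE 0.184), so that the level fell by 38.7%, with an adjusted p of 0.0322 in glmTreat.

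This call for *Pde4b* lay near the threshold. It was lost in edgeR without replicate 2 or 4 of DMSO (adjusted p = 0.0628 and 0.107) or without replicate 2, 3 or 4 of DOX (adjusted p = 0.0702, 0.126 and 0.0723) at 3 days, and DESeq2 gave an adjusted p of 0.233. The log2 fold change was then -0.70 to -0.56 in edgeR and -0.70 in DESeq2. As TPM the groups overlapped, at 1.54 ± 0.308 in DMSO and 0.903 ± 0.363 in DOX (n = 4 each). At 6 days *Pde4b* was at 2.91, 3.77, 5.31 and 3.61 CPM in DMSO and at 3.62, 3.86, 3.44 and 3.78 CPM in DOX. All DOX values fell inside the DMSO range, and the log2 fold change was -0.09 (SE 0.182, adjusted p = 1.00 in glmTreat). The effects of the 2 times differed by 0.62, with an adjusted p of 0.1002 in glmQLFTest, so a difference between times was not shown. Without replicate 3 of DMSO at 6 days or replicate 1 of DOX at 3 days this p became 0.0343 or 0.0174.

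*Pde4a* encodes the remaining PDE4 enzyme of the set and lies at chr9:21165714-21213248 on the plus strand. In DMSO and DOX libraries it stood at 3.67, 5.39, 5.32 and 5.04 against 4.46, 4.68, 4.23 and 4.10 CPM at 3 days. At 6 days the CPM values were 4.59, 3.82, 4.50 and 4.61 against 5.33, 4.76, 4.38 and 4.42. The groups overlapped at both times. The log2 fold changes were -0.16 (SE 0.126) and 0.11 (SE 0.126), with an adjusted p of 1.00 in glmTreat at each time. *Pde4c* went from 13.2 ± 1.23 to 9.29 ± 1.70 CPM at 3 days without overlap, a log2 fold change of -0.51 that did not pass (adjusted p = 0.0547 in glmTreat).

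**Figure D2:**
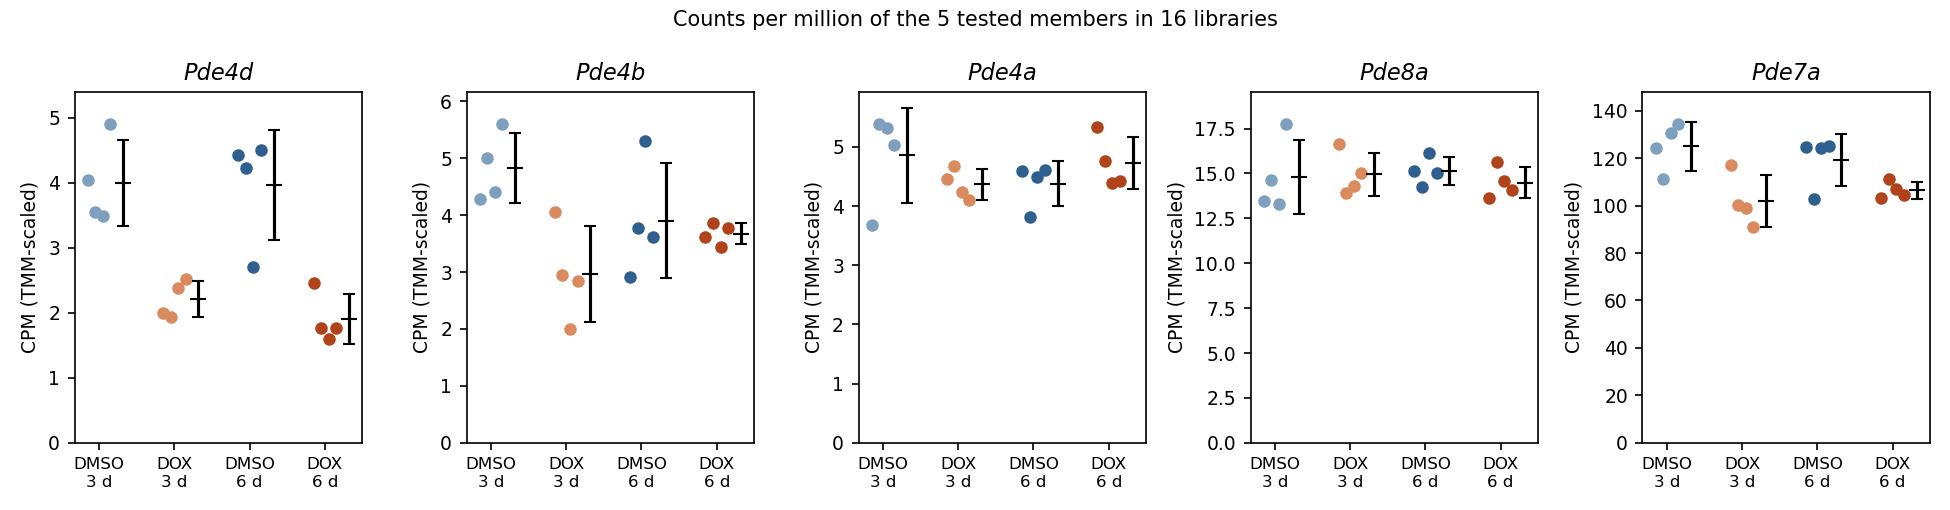
The plot of CPM by library gives the 5 tested genes in a panel each, with the 4 groups along the horizontal axis, every point a library and the black bar beside it the mean ± SD (n = 4), with the vertical axis starting at 0. The DOX points of *Pde4d* lie under all DMSO points of the same day, those of *Pde4b* do so at 3 days only, and the groups of *Pde4a* and *Pde8a* overlap.

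*Pde7a*, the most abundant of the genes, encodes a high-affinity enzyme for cyclic AMP. It spans chr3:19223108-19311322 on the minus strand and is overlapped by the antisense gene *Gm16093*. At 3 days it was at 124, 111, 131 and 134 CPM in DMSO and at 117, 100.3, 99.0 and 90.9 CPM in DOX. Only the first DOX replicate reached the DMSO range. The log2 fold change of -0.30 (SE 0.0768) lies near the 1.2-fold limit itself and was not called (adjusted p = 0.473 in glmTreat). The same fit without a fold limit gave an adjusted p of 0.00368 (glmQLFTest), but it called 5982 of 13234 tested genes.

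At 6 days *Pde7a* stood at 125, 103, 124 and 125 CPM in DMSO and at 103, 111, 107 and 104 CPM in DOX. The second DMSO replicate was low, and with it the groups overlapped. The log2 fold change was -0.16 (SE 0.0766, adjusted p = 1.00 in glmTreat). As TPM the gene went from 49.1 ± 4.85 to 38.9 ± 11.5 at 3 days and from 52.4 ± 7.07 to 44.9 ± 3.36 at 6 days.

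*Pde7a* varied more between DOX replicates of 3 days as TPM than as CPM, with 53.6, 34.9, 40.8 and 26.2 TPM. The ratio of count to TPM, scaled so that 309 genes with a single annotated transcript match their own length, gives the average transcript length that the estimate assigned to the gene in each library. For *Pde7a* it was 2575, 2857, 2450 and 3461 bases in these libraries. The library with the longest length had the lowest TPM, but TPM is the divisor of this ratio, so length and TPM are not independent. Its 10 annotated transcripts run from 245 to 6298 bases. For *Pde8a* the implied length at 6 days was 2866 to 3514 bases in DMSO and 2412 to 2875 bases in DOX. *Pde4a* moved little, at 3850 to 4391 bases over all libraries. How much of this reflects which transcripts the cells made and how much the assignment of reads was not tested.

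*Pde8a* encodes another high-affinity enzyme for cyclic AMP and lies at chr7:81213596-81334533 on the plus strand. At 3 days it was at 13.5, 14.7, 13.3 and 17.8 CPM in DMSO and at 16.6, 13.9, 14.3 and 15.0 CPM in DOX. The 6-day libraries held 15.1, 14.3, 16.1 and 15.0 CPM against 13.6, 15.6, 14.6 and 14.1. All 4 groups overlapped. The log2 fold changes were 0.01 (SE 0.0899) and -0.06 (SE 0.0895), both with an adjusted p of 1.00 in glmTreat. On log2(TPM + 1) the difference was -0.09 at 3 days, or 0.06 relative to the median of all genes. At 6 days it was 0.13, or 0.19 relative to that median. The sign was thus opposite to that of CPM at 6 days, and at 3 days it depended on the shift of all genes. No direction can be given for *Pde8a*.

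**Figure D3:**
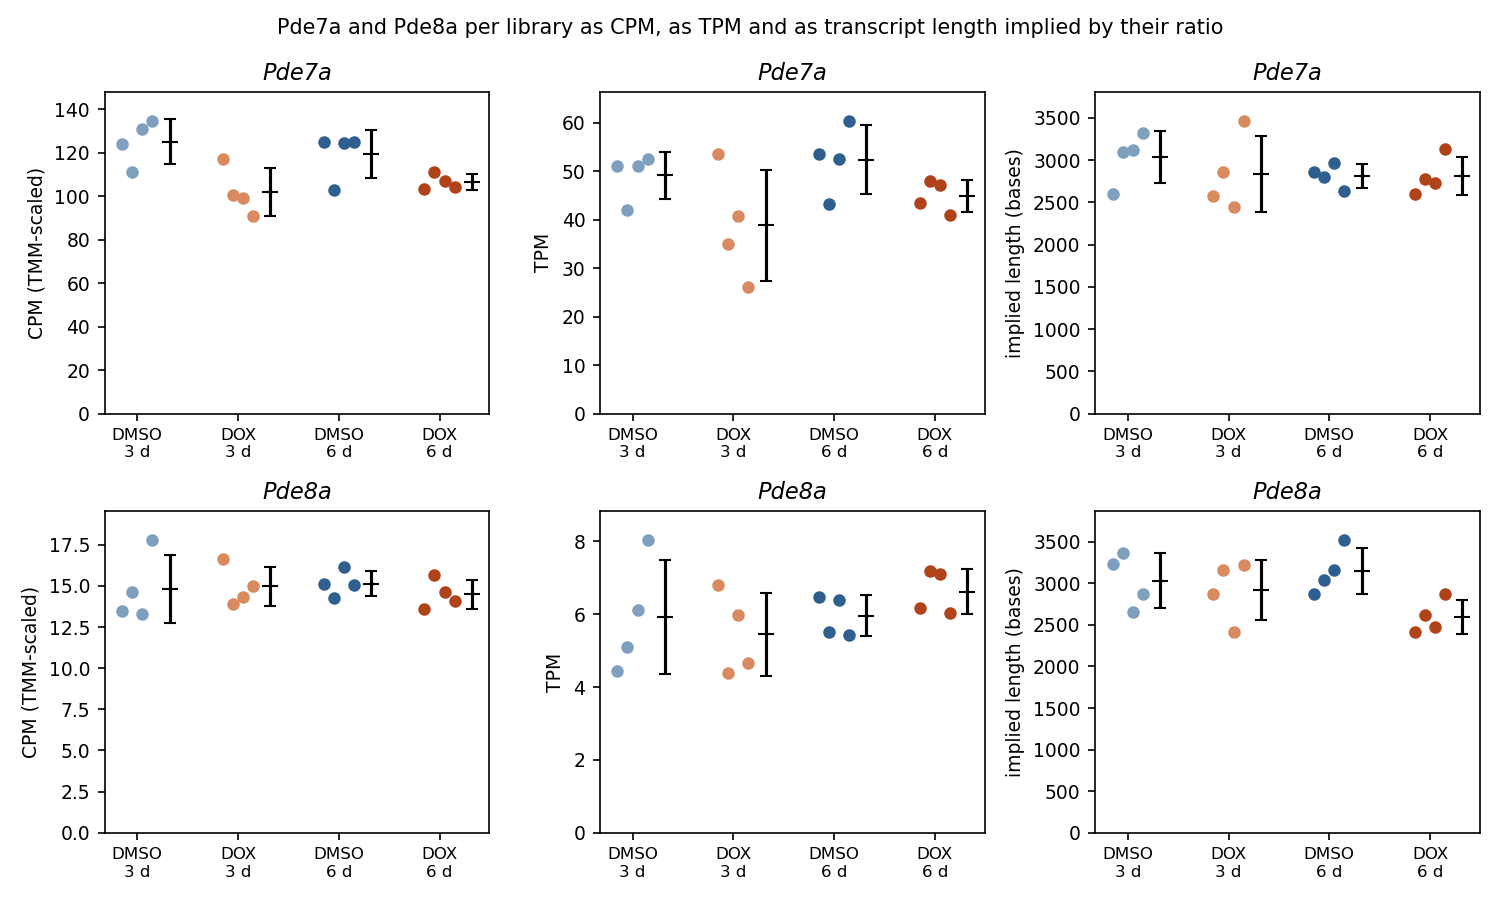
The plot of scales sets *Pde7a* (upper row) and *Pde8a* (lower row) side by side as CPM, as TPM and as the implied transcript length in bases, every point a library and bars showing mean ± SD (n = 4), all axes starting at 0. The 4 DOX libraries of 3 days spread from 26.2 to 53.6 TPM for *Pde7a* beside 90.9 to 117 CPM.

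The genes below the filter were compared as CPM by an exact two-sided permutation test of 4 against 4 libraries, which cannot go below a p of 0.0286, and 10 such tests were run. A count of 3 is worth 0.125 to 0.177 CPM in these libraries before TMM scaling. With the scaling used for the values here it is worth, for example, 0.184 CPM in replicate 1 of DMSO at 3 days. In replicate 2 of DOX at 6 days it is worth 0.123 CPM. *Pde1a* held 0 to 12 counts per library and *Pde1c* 0 to 7, and both encode calcium-dependent enzymes. At 3 days *Pde1c* was at 0.122, 0.209, 0.114 and 0.261 CPM in DMSO and at 0.0501, 0.0996, 0.0542 and 0.109 CPM in DOX. The groups did not overlap (exact p = 0.0286, n = 4 each), but every DOX library lay under the worth of 3 counts. Replicates 1 and 3 of DMSO, with 2 counts each, lay under it as well. An edgeR fit without the filter gave *Pde1c* an adjusted p of 0.679 over all genes.

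*Pde10a* held 3 to 12 counts per library. It went from 0.538 ± 0.147 CPM in DMSO to 0.296 ± 0.143 CPM in DOX at 3 days (exact permutation p = 0.0571, n = 4 each) and from 0.375 ± 0.0775 to 0.308 ± 0.139 CPM at 6 days (exact permutation p = 0.457, n = 4 each). The groups overlapped at both times as CPM, and as TPM they did not at 3 days, with 0.169 to 0.307 in DMSO and 0.0210 to 0.157 in DOX. *Pde3a* and *Pde3b*, which encode the enzymes that cyclic GMP inhibits, held at most 5 and 9 counts in a library. Their exact permutation p-values were 0.457 and 1.00 at 3 days and 0.743 and 0.457 at 6 days (n = 4 each). *Pde1a* gave 0.286 at both times by the same exact permutation test. In the edgeR fit without the filter the 5 genes had adjusted p from 0.222 to 1.00 over all genes at the 2 times, so no change was detectable at this depth.

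Of the enzymes that take cyclic GMP, *Pde9a*, a high-affinity cyclic GMP phosphodiesterase, was lower at 6 days, with 1.71 ± 0.334 CPM in DMSO and 0.938 ± 0.102 CPM in DOX (log2 fold change -0.87, SE 0.248, adjusted p = 0.0279 in glmTreat). Without replicate 2 or 3 of DMSO or of DOX at 6 days the call was lost (adjusted p = 0.0559 to 0.0959). It was also lost in DESeq2 (adjusted p = 0.191) and by limma on log2(TPM + 1) (adjusted p = 0.855). At 3 days *Pde9a* was at 1.07 ± 0.321 CPM in DMSO and 1.12 ± 0.370 CPM in DOX, near its DOX level of 6 days. Without DOX it was 0.69 higher at 6 than at 3 days on the log2 scale, which was not called. A difference of DOX effects between times was not shown (adjusted p = 0.0714, glmQLFTest). The gene held 14 to 40 counts per library. *Pde5a*, the cyclic GMP-specific enzyme that sildenafil inhibits, went from 22.7 ± 0.146 to 18.0 ± 1.23 CPM at 3 days without being called (adjusted p = 0.335 in glmTreat).

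**Figure D4:**
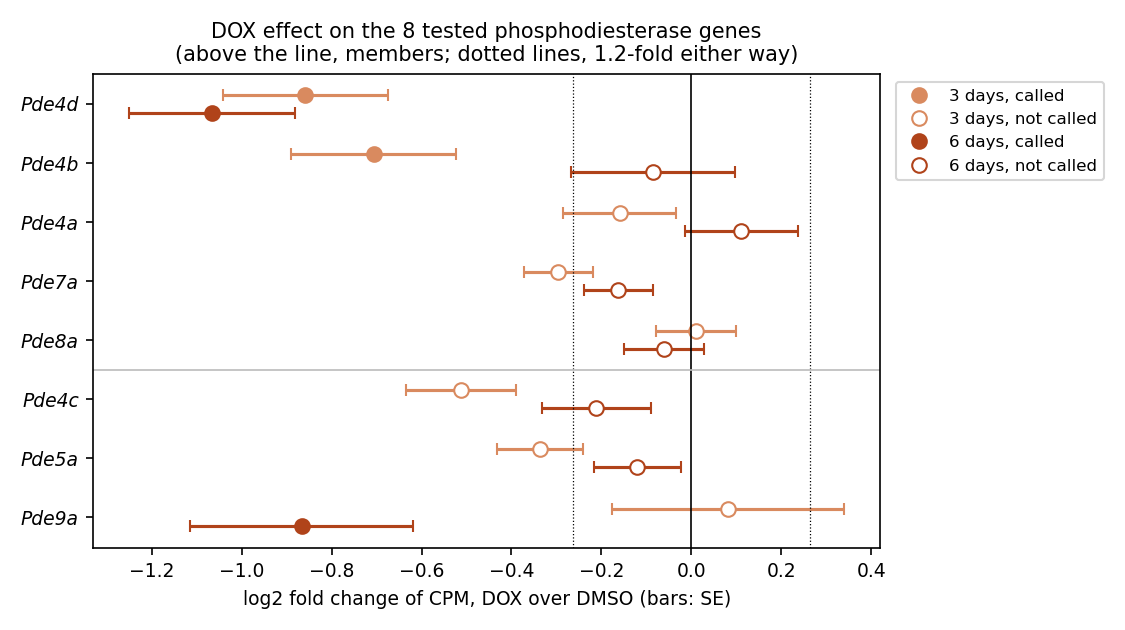
The plot of the DOX effect gives the log2 fold change of CPM (horizontal axis, bars for the SE) of the 8 tested phosphodiesterase genes at 3 days (light) and 6 days (dark), with filled points called by glmTreat and dotted lines at 1.2-fold either way. *Pde4d* is filled at both times, at -0.86 and -1.07, *Pde4b* at 3 days only and *Pde9a* at 6 days only.

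The other side of the pathway was read from lists of genes by role. Of 12 genes for cyclic AMP synthesis (adenylyl cyclases and stimulatory G proteins) 6 were tested. At 3 days 1 of the 6 was called lower, beside 7.22% of all tested genes, and none was called at 6 days, beside 21.6%. It was *Gnal*, an α subunit (log2 fold change -0.78, adjusted p = 0.0478 in glmTreat), which held 13 to 51 counts per library. At 6 days *Gnal* was higher in DOX without overlap but was not called (log2 fold change 0.57, adjusted p = 0.124 in glmTreat). The *Gnal* call was lost in DESeq2 (adjusted p = 0.365) and without 11 of 16 libraries in turn (adjusted p up to 0.132). Of 16 receptors coupled to the stimulatory G protein 3 were tested, and 1 was called lower at both times, beside 5.36% of all tested genes. It was *Ptger4*, a prostaglandin E2 receptor (-0.60 and -0.59, adjusted p = 0.00559 and 0.00345 in glmTreat).

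Among protein kinase A subunits and inhibitors 7 of 9 were tested, and 2 were called lower at both times, beside 5.36% of all tested genes. They were the catalytic subunit *Prkacb* (log2 fold change -0.43 and -0.47) and the regulatory subunit *Prkar2b* (-0.49 and -0.53), with adjusted p of 0.0220 and 0.0167 at 3 days and 0.00339 and 0.00399 at 6 days in glmTreat. Their calls at 3 days were lost in DESeq2 (adjusted p = 0.177 and 0.165), *Prkacb* also without replicate 1 of DMSO or replicate 2, 3 or 4 of DOX, and *Prkar2b* without replicate 1 of DMSO or replicate 3 of DOX at 3 days (adjusted p from 0.0509 to 0.0706). With transcript length and GC content corrected for they were also lost at 3 days (adjusted p = 0.487 and 0.107).

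Anchoring proteins hold phosphodiesterases and protein kinase A at the same place in a cell. Of 17 listed, 13 were tested, with 1 called higher and 4 called lower at 3 days, beside 5.30% and 7.22% of all tested genes. At 6 days 1 was called higher and 3 were called lower, beside 10.0% and 11.6%. *Akap12* was lower by the widest margin (-0.81 and -0.91, adjusted p = 3.50e-06 and 1.63e-07 in glmTreat). *Akap13* fell by 0.63 and 0.72 and *Akap2* by 0.50 and 0.50 on the log2 scale. *Arrb1*, an arrestin that brings PDE4D to receptors, was lower at 3 days (-0.51, adjusted p = 0.0144 in glmTreat, but 0.0584 without replicate 2 of DMSO and 0.170 in DESeq2). The correction for length and GC ended the *Akap2* call at 3 days (adjusted p = 0.506). Over the list the median log2 fold change was -0.09 and -0.01, beside 0.0031 and -0.00064 over all tested genes.

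Of 12 further cyclic AMP effectors and CREB factors 9 were tested. At each time 1 was called lower, beside 7.22% and 11.6% of all tested genes, and 1 was called higher at 6 days, beside 10.0%. *Rapgef3*, the exchange factor EPAC1 that cyclic AMP opens directly, was lower at 3 days (-0.52, adjusted p = 0.0161) and at 6 days (-0.96, adjusted p = 9.41e-07), and *Crtc3*, a CREB coactivator, was higher at 6 days (0.49, adjusted p = 0.0183 in glmTreat). The *Rapgef3* call at 3 days was lost without replicate 2 of DOX at 3 days (adjusted p = 0.0682) and in DESeq2 (0.167), and the *Crtc3* call without replicate 2 of DMSO or replicate 3 of DOX at 6 days (0.0562 to 0.0732) and in DESeq2 (0.172). Of 12 genes known as CREB targets 11 were tested, and at each time 5 were called lower and 1 was called higher. Beside this stand 7.22% lower and 5.30% higher of all tested genes at 3 days, and 11.6% and 10.0% at 6 days. *Dusp1* (-0.93 and -1.43), *Sik1* (-0.86 and -1.05) and *Fos* (-0.85 and -0.97) were lower, and the growth factor gene *Areg* was higher (1.03 and 0.84). The median of the 11 was -0.62 at 3 days and -0.69 at 6 days, beside 0.0031 and -0.00064 over all tested genes.

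For the regulators of the PDE1 enzymes, 7 of 8 calcium and calmodulin genes were tested. At 3 days none was called, and at 6 days 3 were called lower, beside 11.6% of all tested genes. These were *Calm2* (log2 fold change -0.48), *Calm3* (-0.42) and the kinase subunit *Camk2b* (-1.13), and *Calm3* lost its call in DESeq2 (adjusted p = 0.0648). For cyclic GMP synthesis and effectors, 5 of 11 were tested. The test called 1 lower at 3 days and 2 lower at 6 days, beside 7.22% and 11.6% of all tested genes. *Npr1*, the receptor for atrial natriuretic peptide that makes cyclic GMP, was lower at both times (-1.63 and -2.26). *Prkg2*, a cyclic GMP-dependent kinase, was lower at 6 days (-1.45, adjusted p = 0.000190 in glmTreat).

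Over the 16 libraries the tested genes whose pattern lay nearest to that of *Pde4d* were *Rapgef3*, *Tnfaip3* and *Sbsn*. Their root mean square differences of mean-centred log2 CPM from *Pde4d* were 0.214, 0.224 and 0.225, beside a median of 0.550 over all tested genes. *Tnfaip3* was lower by 0.61 and 0.82 and *Sbsn* by 0.86 and 0.89 on the log2 scale at 3 and 6 days. These libraries are shared by all of the genes, and the likeness is a description.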

How the data were processed

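The mouse genes and all lists were chosen with earlier results of these data known. Per the labels, the authors used a directional kit, aligned the read pairs to GRCm38.p6 with STAR 2.6.0c and quantified transcripts with Salmon 0.14.10, and they deposited unnormalized estimated counts and TPM. Whether the quantification used strand is not given in the sources used here. Reads of *Pde7a* and its antisense gene, or of *Pde10a* and the opposite *Gm17087*, may therefore be mixed where their transcripts share bases. Overlaps were read from whole gene spans, and overlap of exons was not checked. Pseudogenes lie within *Pde4d*, *Pde8a* and *Pde10a*. The labels do not say whether replicates were separate cultures, so p-values measure the spread between these libraries, and count floors cover counting error only. A bulk library cannot tell fewer cells from less RNA per cell.

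Estimated counts were rounded. Genes had to reach 1 CPM in 4 or more libraries, TMM was applied, and a robust quasi-likelihood model with a mean per group was fitted to 16 libraries (edgeR 4.0.16, R 4.3.3). DOX was compared with DMSO by glmTreat at 1.2-fold and the difference between times by glmQLFTest, two-sided, with Benjamini-Hochberg adjustment over 13234 genes and a limit of 0.05. The SE is the log2 fold change divided by the root of F. DMSO at 6 and 3 days differed in 0 genes (172 at an unadjusted p under 0.05, 0 by DESeq2 1.42.0 and 0 by limma 3.58.1). Every gene of the 10 is named, and of other lists at most the 4 called genes with the widest log2 fold change, plus the 3 genes nearest to the called gene with the widest change. *Pde4c* and *Pde5a*, neither of them called, were chosen for naming with their values in view. The implied transcript length was added after the data were seen. Positions and overlaps come from GENCODE M21. Some listed genes are not reported here. The alternatives were RLE scaling, DESeq2, limma on log2(TPM + 1), no fold limit, other filters, 8 libraries at a time, a length and GC correction, a replicate block and leaving out each library.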

Additional observations from a re-analysis of the deposited data

Results flagged for a closer look

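Of 160 groups of 4 values, 8 held a library far from the other three by Dixon's criterion, and chance flags about 1 in 20. In DMSO at 6 days *Pde4d* was at 2.71 CPM in replicate 3 beside 4.23 to 4.50 CPM in the others. In the same group replicate 2 stood apart for *Pde4a* (3.82 CPM beside 4.50 to 4.61) and for *Pde7a* (103 CPM beside 124 to 125). *Pde7a* was also low as TPM in replicate 2 of DMSO at 3 days (41.9 TPM beside 51.0 to 52.5). *Pde10a* was high in replicate 4 of DOX at 6 days (0.353 TPM beside 0.0470 to 0.0830). *Pde1a* was at 0 CPM in replicate 4 of DOX at 3 days beside 0.0996 to 0.108 CPM. Outside the 10 genes, *Prkacb* was at 125 CPM in replicate 1 of DOX at 3 days beside 106 to 108 CPM, and *Npr1* at 0.929 CPM in replicate 4 beside 1.25 CPM.

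None of the 5 tested phosphodiesterase genes of the set had a DOX effect that differed between 3 and 6 days (adjusted p from 0.1002 up, glmQLFTest). Among the named genes of the other lists 5 did. The effect at 6 days minus that at 3 days on the log2 scale was 1.34 for *Gnal* (adjusted p = 0.00656), -0.50 for *Dusp1* (adjusted p = 0.00820), -0.48 for *Calm2* (adjusted p = 0.00229), -0.44 for *Rapgef3* (adjusted p = 0.0297) and 0.44 for *Crtc3* (adjusted p = 0.0298). Leaving out 1 library in turn ended the differences of *Rapgef3* in 7 of 16 cases (adjusted p from 0.0503 to 0.0762) and of *Crtc3* in 10 of 16 (0.0523 to 0.0741). By limma on log2(TPM + 1) the differences of *Dusp1* (-0.33, adjusted p = 0.243), *Rapgef3* (-0.34, adjusted p = 0.285) and *Crtc3* (0.53, adjusted p = 0.158) were not called.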

How the results depend on the processing

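The number of genes called at 3 days was 1019 in DESeq2, 701 by limma on log2(TPM + 1) and 5982 without a fold limit, beside 1658. At 6 days limma gave 1307 and the fit without a fold limit 6702, beside 2856. Between DMSO at 6 and 3 days 6 genes were called without a filter and 62 without a fold limit. Genes whose effects differed between times numbered 659 by limma. Leaving out 1 library gave 1366 to 2297 genes at 3 days, 2537 to 3057 at 6 days, 0 between DMSO times and 1370 to 3788 for the difference between times, where the count moved most without replicate 4 of DMSO (1370), replicate 1 of DOX (3788) and replicate 2 of DOX (1493) at 3 days and replicate 2 of DMSO at 6 days (1470). Of the 10 phosphodiesterase genes, 2 called at 3 days became 0 in DESeq2 and by limma and 1 to 2 when a library was left out, and 1 called at 6 days became 0 by limma. A comparison of the genes below the filter as TPM, chosen after seeing the data, gave 2 exact permutation tests at the smallest p in place of 1.

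Same-numbered replicates did not vary together. The correlations of their deviations from group means were -0.433 to 0.178, and 0 of 8 libraries at each time correlated best with its own number, so the numbers were not taken as pairs. With the replicate block 1 of the 10 genes was called at 3 days, also with the length and GC correction added, since *Pde4b* missed the threshold (adjusted p = 0.0621 and 0.0702). The block gave 1570 and 2767 called genes.

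Among the genes of other lists, limma also ended the calls of *Ptger4* (adjusted p = 0.120), *Prkacb* (0.0714), *Camk2b* (0.641), *Crtc3* (0.939) and *Pde9a* (0.855) at 6 days. At 3 days it ended those of *Akap2* (0.0521), *Prkar2b* (0.121), *Arrb1* (0.264), *Rapgef3* (0.208) and *Gnal*. The *Akap13* calls were ended at both times (0.220 and 0.205).

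The sign changed in no called result under these alternatives. It changed at 3 days for *Pde4a* with the length and GC correction, to 0.00334 without and 0.00407 with the replicate block. At 6 days *Pde4b* was at 0.0944 without replicate 3 of DMSO (range -0.199 to 0.0944 when leaving out a library). The *Pde4d* difference between times was 0.0487 by limma. *Pde8a* at 3 days was -0.00245 with a CPM of 1 in all libraries, -0.0617 and -0.0576 with the length and GC correction without and with the block, -0.0901 by limma and -0.0451 to 0.113 when leaving out a library. At 6 days *Pde8a* was at 0.132 by limma, and its difference between times was 0.0479 and 0.0446 with the correction without and with the block and 0.222 by limma. The causes were not tested. *Pde4a*, *Pde4b* and *Pde4d* rest on 34 to 129 counts per library.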
